A study of Canis lupus familiaris with 2 samples.

Results

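The genes described here are 9 neighbours on dog chromosome 14 around ABCB1, the gene of the drug efflux pump P-glycoprotein: DMTF1, CROT, RUNDC3B, DBF4, SRI, STEAP4, CFAP69, GTPBP10 and CLDN12. They are the rows of the deposited comparison table with these symbols, 9 of 1729 rows, and they lie between 13.3 and 17.0 Mb (CanFam3.1, per the submitters' processing notes). They were picked because their values in these same samples were higher in the drug-resistant line, so each difference between the lines is a description and has no test. ABCB1 itself was not analysed here.

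RNA sequencing compared the parental line CLBL-1, cells of a canine diffuse large B-cell lymphoma labelled as lymph node tissue of tumor stage IV without chemoresistance, with CLBL-1 8.0, its doxorubicin-resistant form. Doxorubicin is an anthracycline that intercalates into DNA and poisons topoisomerase II. Both lines grew in RPMI medium with 10% fetal bovine serum and penicillin and streptomycin, and the medium of CLBL-1 8.0 also held 8 µM doxorubicin hydrochloride. Each line was 1 sample, and whether CLBL-1 8.0 is 1 clone, and whether the drug was removed before RNA was taken, the sources used here do not say. The effects of drug exposure and of resistance therefore cannot be told apart.

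ABCB1 encodes a membrane transporter that pumps doxorubicin and many other drugs out of cells. As background, in some multidrug-resistant cell lines of other species the chromosome segment that holds ABCB1 is amplified and its neighbours are overexpressed with it. Sorcin, the product of SRI, owes its name to such resistant cells. DNA copy number was not measured in the data used here, so a change in gene copies and a change in transcription per copy cannot be told apart.

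The table gives 1 abundance value per gene and line, with no stated unit; HISAT2 and StringTie are the tools named. It holds a selection of genes: the larger value was at least 5.01 in each row, and where both lines were above 0 they differed at least 1.59-fold. The sequencing depth and the counting error of each value are unknown. Of 12 B cell markers only CD37 had a row, at 26.6 in resistant and 50.4 in parental cells, so a table of differing genes could not show whether the B cell label holds. Of 14 T and NK cell markers 4 had a row, 2 higher and 2 lower, with summed values of 96.4 in resistant and 80.1 in parental cells. Single markers among them differed more than the sums: TRAT1, an adaptor of the T cell receptor, was at 20.6 against 2.72, and PRF1, perforin, at 1.07 against 6.67. GZMA was at 47.1 against 23.5 and EOMES at 27.7 against 47.3. Of 11 myeloid markers 1 had a row, FCER1G, at 14.01 against 7.74. Of 12 stromal and epithelial markers 1 had a row, EPCAM, at 2.07 against 5.26. None of these listed markers was at 0 in either line, and their part in the differences below was not tested.

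All 9 genes were higher in the resistant line, from 10.3-fold for CLDN12 to 341-fold for STEAP4, with a median of 25.02-fold. On the log2((resistant + 1)/(parental + 1)) scale, which is called the log2 difference below and understates the change of genes with low values, the members ran from 2.89 to 6.61 with a median of 4.36. The median over all 1729 rows was 0.73. All 9 members were at least 4-fold higher on this scale, as were 3.76% of all rows, and all 9 were at least 2-fold higher, as were 24.1% of all rows. In the table as a whole, 65.2% of the rows were higher in the resistant line. The members were chosen by this contrast, so nothing is read from their counts.

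**Figure D1:**
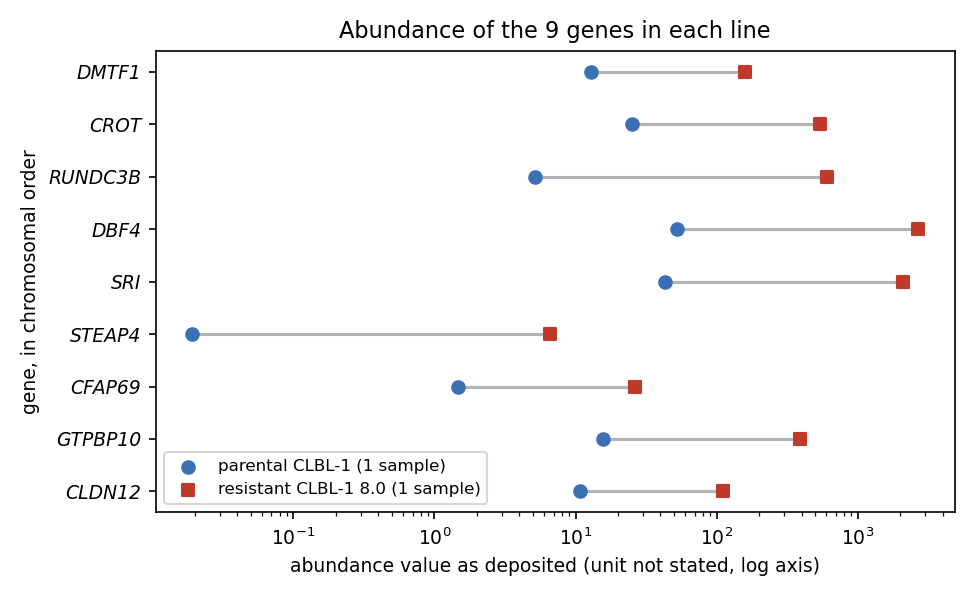
Abundance value of each of the 9 genes (unit not stated, log axis) in parental CLBL-1 (circles) and resistant CLBL-1 8.0 (squares), 1 sample each and so without error bars, with genes in chromosomal order from top to bottom. Every square lies to the right of its circle, and the largest gap on the log axis is that of STEAP4, at 6.55 against 0.0192.

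The members with a role in the cell cycle are DBF4 and DMTF1. DBF4 is the regulatory subunit of the CDC7 kinase, which phosphorylates the MCM helicase so that replication origins can fire. Its listed span is positions 13983832 to 14019917 on the plus strand (gene ID 475219). Its value was 2693 in resistant and 52.1 in parental cells, a 51.7-fold difference and a log2 difference of 5.67. The increase of 2641 in the value of DBF4 was the largest among the members.

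Few other replication genes had a row. Of 40 genes of the CDC7 kinase and of origin firing, 4 had a row. CDC7, the catalytic partner of DBF4, was at 91.1 in resistant cells against 46.8, with a log2 difference of 0.95. GINS1 and GINS2 are subunits of the GINS complex of the replicative helicase. GINS1 was at 93.3 against 51.1, with a log2 difference of 0.86. GINS2 went the other way, at 33.3 against 56.4, with a log2 difference of -0.74. None of the 3 differed 2-fold on this scale. CDC7 lies on chromosome 6, where 214 of 227 rows were higher. GINS1 lies on chromosome 23, where 14 of 24 were, and GINS2 on chromosome 5, where 56 of 153 were.

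DMTF1 is a Myb-like transcription factor that binds D-type cyclins and, in mouse cells, activates the promoter of the ARF tumour suppressor. It is listed at 13336316 to 13378231 on the plus strand (gene ID 475217) and is the first of the 9 genes along the chromosome. Its value was 159 in resistant and 12.9 in parental cells, which is 12.3-fold and a log2 difference of 3.52. Of 19 genes of the ARF and p53 axis and the D-type cyclins, 4 had a row. Besides DMTF1, which was chosen for being higher, these were 3 genes that restrain the cell cycle. All 3 were at least 2-fold higher, against 24.1% of all rows. The list was chosen with earlier results of these data known, so nothing is read from this count. CDKN2B, an inhibitor of CDK4 and CDK6, was at 116 against 41.5, with a log2 difference of 1.46. CDKN1A, the p53 target that encodes p21, was at 113 against 49.4, with a log2 difference of 1.18. RB1, the retinoblastoma protein, was at 45.7 against 21.2, with a log2 difference of 1.08. These 3 genes lie on chromosomes 11, 12 and 22, and each had a smaller log2 difference than DMTF1.

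SRI encodes sorcin, a penta-EF-hand protein that binds calcium and regulates ryanodine receptor calcium channels. The SRI span is 14257375 to 14274816 on the minus strand (gene ID 475220). Its value was 2079 in resistant against 43.3 in parental cells, which is 48.0-fold and a log2 difference of 5.55. Of 28 penta-EF-hand and calcium-handling genes, 5 had a row. The calpain subunits CAPN1 and CAPN2, calcium-dependent proteases with penta-EF-hand domains, were at 40.9 against 23.3 and at 60.4 against 33.02. STIM1, the calcium sensor of the endoplasmic reticulum, was at 67.8 against 39.3. Log2 differences of these 3 genes were between 0.77 and 0.85. Grancalcin (GCA), a close relative of sorcin within the same protein family, was in the opposite direction, at 0.438 in resistant cells against 10.6, with a log2 difference of -3.01. It lies on chromosome 36, where 1 of 46 rows was higher.

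The metabolic members are CROT and STEAP4. CROT is a peroxisomal enzyme that transfers medium-chain acyl groups to carnitine so that products of peroxisomal fatty acid oxidation can leave. It is listed at 13475130 to 13533130 on the plus strand (gene ID 482283), and its value was 537 in resistant against 25.2 in parental cells. That is 21.3-fold and a log2 difference of 4.36, the median of the members. Of 38 genes of carnitine acyl transfer and peroxisomes, 5 had a row, and those other than CROT were split. CPT1A, the mitochondrial outer membrane carnitine palmitoyltransferase, was at 34.5 against 18.9, with a log2 difference of 0.83. CPT2, its inner membrane counterpart, was lower at 127 against 210.1, and PEX10, a peroxisomal ubiquitin ligase subunit, was lower at 9.21 against 16.8.

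STEAP4 is a metalloreductase that reduces iron and copper ions. It is listed at 14319895 to 14345719 on the minus strand (gene ID 482287), and it had the lowest level of the members in both lines, 6.55 in resistant and 0.0192 in parental cells. The 341-fold ratio rests on that low parental value: the log2 difference was 2.89 with a pseudocount of 1, 8.41 with none and 1.20 with a pseudocount of 5. Of 23 genes of the STEAP family and of iron handling, 3 had a row, and the other 2 were lower. STEAP3, the metalloreductase of transferrin-derived iron, was at 23.5 against 41.6, with a log2 difference of -0.79. HMOX1, heme oxygenase 1, was at 1.72 against 5.34, with a log2 difference of -1.22.

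GTPBP10 is a GTPase that takes part in assembly of the large subunit of the mitochondrial ribosome. The listed span of GTPBP10 is 16247715 to 16274823 on the plus strand (gene ID 100683980). Its value was 393 in resistant and 15.7 in parental cells, which is 25.02-fold and a log2 difference of 4.56. Of 26 genes of mitochondrial ribosome assembly, 1 other had a row: METTL15, a methyltransferase of mitochondrial ribosomal RNA, was at 7.30 against 3.54, with a log2 difference of 0.87.

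The remaining members are a membrane protein, an adaptor and a ciliary protein. CLDN12 is a claudin, a family of membrane proteins of tight junctions. Its value was 111 in resistant and 10.7 in parental cells, which is 10.3-fold and a log2 difference of 3.25. The value of CLDN12 may not belong to this gene alone. It is listed at 16286030 to 17007482 on the plus strand (gene ID 608397), a span 67.9 times that of CLDN12 in a reference annotation of another dog assembly (UU_Cfam_GSD_1.0) and 0.999 times that of its neighbour CDK14, a cyclin-dependent kinase gene that overlaps CLDN12 there. Over the 1605 rows found in the reference by gene ID, the median ratio of the spans was 1.000, and 11 rows had a ratio of at least 10. The other members found there had ratios between 0.950 and 1.02, and STEAP4 was not matched by its gene ID. Of 32 claudins and tight junction genes, 1 other had a row, CLDN23, at 17.8 against 6.63.

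RUNDC3B encodes a RUN domain protein; the related RUNDC3A is known to bind RAP2 small GTPases. RUNDC3B is listed at 13764583 to 13933025 on the plus strand (gene ID 482285). Its value was 604 in resistant against 5.19 in parental cells, which is 116-fold, and its log2 difference of 6.61 was the largest of the members. Of 19 RUN domain and RAP genes, 1 other had a row, RAP2A, at 23.5 against 13.3. CFAP69, a protein of cilia and sperm flagella, is listed at 16154334 to 16210660 on the plus strand (gene ID 609727). Its value was 26.4 in resistant and 1.48 in parental cells, which is 17.9-fold and a log2 difference of 3.47. CFAP36 was the only other of 33 listed CFAP names with a row, at 27.3 against 15.3.

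Across these pathway and family lists, the genes with a row that are no members had log2 differences between -3.01 and 1.46. The lowest of the members, STEAP4, was at 2.89, a gap that the choice of the members helped to set.

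**Figure D2:**
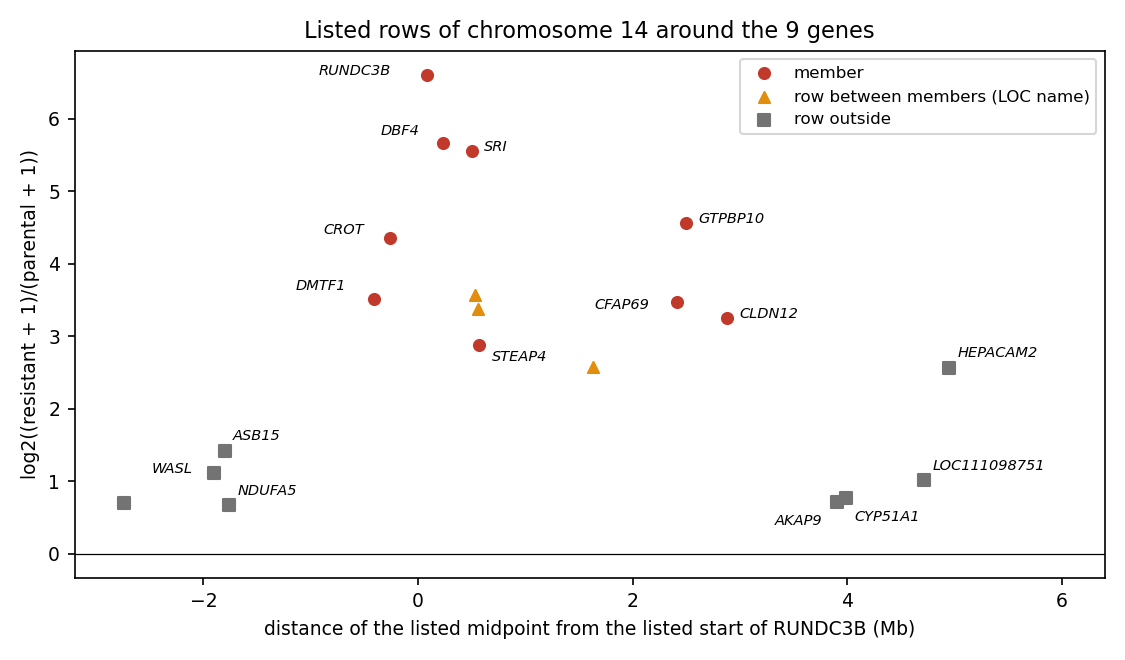
Log2 difference of listed rows of chromosome 14 against the distance of their listed midpoint from the listed start of RUNDC3B, in Mb, 1 sample per line. The members (circles) and the 3 LOC rows between them (triangles) lie at 2.58 or above, RUNDC3B highest at 6.61, while AKAP9 and NDUFA5, the nearest rows on either side (squares), lie at 0.72 and 0.67.

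Along the chromosome the differences were uneven, and their order depends on the pseudocount of 1. Without a pseudocount, STEAP4 was highest at 8.41, from a parental value of 0.0192. RUNDC3B, DBF4 and SRI then had 6.86, 5.69 and 5.58, and the low rows LOC106559693 and LOC111098741, described below, 7.01 and 6.14. From DMTF1 to STEAP4, 6 members lay within 1.01 Mb, with log2 differences from 2.89 to 6.61 and a median of 4.96. DMTF1 and CROT, before RUNDC3B, had 3.52 and 4.36. The largest log2 differences, 6.61, 5.67 and 5.55, fell on the consecutive listed rows RUNDC3B, DBF4 and SRI. These are not consecutive genes: in the reference, SLC25A40 lies between RUNDC3B and DBF4, and ADAM22 between DBF4 and SRI. Neither had a row. In the gene order of the reference, ABCB4 and ABCB1 lie between CROT and RUNDC3B. After STEAP4 came 1.81 Mb without a member. From CFAP69 to CLDN12, 3 members lay within 0.853 Mb, with log2 differences of 3.47, 4.56 and 3.25.

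Between the first and the last member, 3 further rows were listed, all uncharacterized LOC genes with low values. LOC106559693 was at 12.04 in resistant against 0.0934 in parental cells, LOC111098741 at 10.97 against 0.156, and LOC106559689 at 15.1 against 1.69. Their log2 differences were 3.58, 3.37 and 2.58, so all 12 rows from DMTF1 to CLDN12 were at least 4-fold higher. The parental values of these LOC rows were below 5.01, the smallest larger value of any row. They could therefore be listed only by being higher in the resistant line, as could the members STEAP4 and CFAP69. Nothing is read from the shared direction of the 12 rows. Listed spans overlapped in 2 places. LOC106559693 shares 53 bases with SRI on the opposite strand, and LOC111098741 shares 16411 bases with STEAP4 on the opposite strand. The sources used here do not say whether reads were counted by strand, so the values of STEAP4 and LOC111098741 may not be separable.

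The 3 listed rows on each side had smaller log2 differences. Before DMTF1, the nearest row was NDUFA5, a subunit of respiratory complex I, at 294 in resistant cells against 185 with a log2 difference of 0.67. Further out, ASB15 was at 6.10 against 1.64 and WASL, an activator of actin nucleation, at 10.7 against 4.37. Their log2 differences were 1.43 and 1.12. After CLDN12, the nearest row was AKAP9, a scaffold of protein kinase A, at 19.04 against 11.2 with a log2 difference of 0.72. CYP51A1, a sterol demethylase of cholesterol synthesis, was at 201 against 117 with 0.77, and LOC111098751 at 31.02 against 14.8 with 1.01. The step from the last row outside to the first inside was thus from 0.67 to 3.52 on 1 side and from 3.25 to 0.72 on the other. No row is listed between 12008257 and 13336316 or between 17007482 and 17590256, so the place of each step is not seen. The row after LOC111098751 was HEPACAM2, named after its value was seen, at 5.67 against 0.124 with a log2 difference of 2.57. It too could be listed only by being higher.

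The reference places 21 protein-coding genes on the stretch that DMTF1 opens and CLDN12 closes. Matched by gene ID, 8 of these had a row. STEAP4 is not among the 8, because its gene ID was not found there. A LOC gene without a matching ID follows SRI in the reference and overlaps LOC111098741, as STEAP4 does in the deposited table, so the 13 unmatched genes may include STEAP4 under another ID. TMEM243, SLC25A40, ADAM22, STEAP1 and STEAP2, besides ABCB4 and ABCB1, had no row and were not analysed here. SLC25A40 overlaps RUNDC3B in the reference, TMEM243 overlaps DMTF1, and FAM237B overlaps CFAP69. The sources used here do not say how reads of these overlaps were assigned.

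Of the 46 rows of chromosome 14, 37 are no members, and 34 of these (91.9%) were higher in the resistant line, against 65.2% of all rows. Several of the 34, among them PLXNA4, PHF14 and GPR85, had parental values below 5.01 and could be listed only by being higher. Nothing is therefore read from the 91.9%. The 37 rows had a median log2 difference of 1.01, and 6 of them (16.2%) were at least 4-fold higher, against 3.76% of all rows. Of these 6, 3 were the LOC rows between the members. All of the 6 but KBTBD2 had parental values below 5.01, so they could be listed only by being higher. The highest of the rows outside was KBTBD2, named after its value was seen, at 902 against 114 with a log2 difference of 2.97, 27.9 Mb beyond the listed end of CLDN12. In the table ordered by position, the 12 rows from DMTF1 to CLDN12 were the longest run of consecutive rows that were each at least 4-fold higher, and no other such run was longer than 2 rows. At 2-fold, the next longest run had 7 rows and also lay on chromosome 14, from LOC111098751 to AHR, with a median of 1.08. No run on another chromosome was longer than 4 rows. Of the 12 rows, 9 are members chosen for being higher, and the 3 LOC rows could be listed only by being higher. That choice helped to set the longest run, so nothing is read from its length. Runs also skip genes without a row, and 8 of the 21 protein-coding genes that the reference places here had a matching row. Chromosome 6, where 214 of 227 rows were higher, had a median log2 difference of 0.88, and 5 of its rows (2.20%) were at least 4-fold higher.

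**Figure D3:**
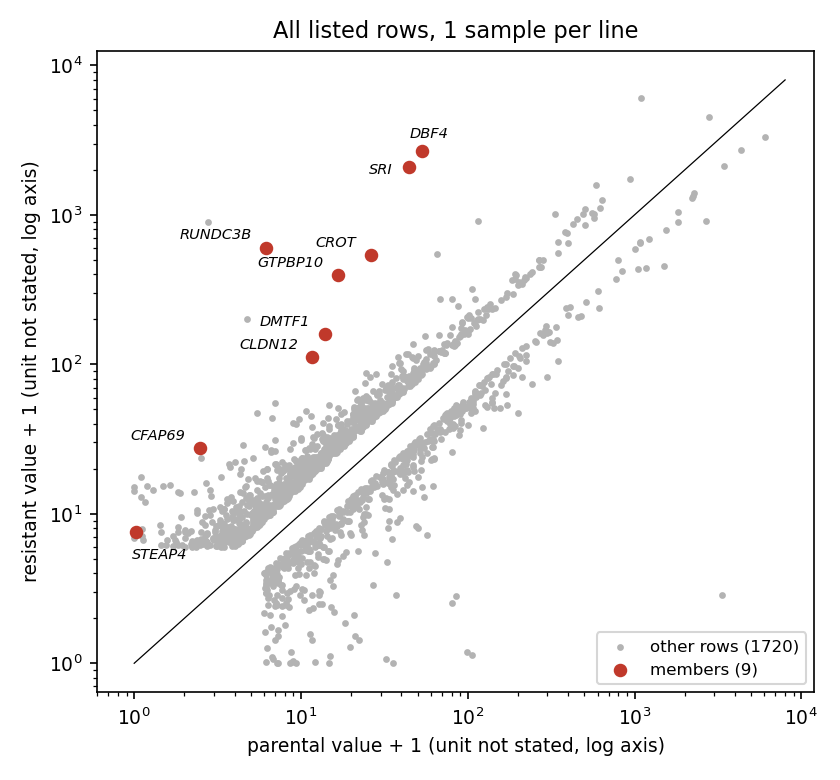
Resistant against parental value of all listed rows, each plus 1 (unit not stated, log axes, 1 sample per line), with the 9 members in dark circles and the other 1720 rows as small grey points. The diagonal marks equal values, and the empty band along it is the range of small differences that the table leaves out. DBF4, at 2693 against 52.1, and SRI, at 2079 against 43.3, stand highest of the members.

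Among the listed rows, the members had middling levels in parental cells and high levels in resistant cells. Their choice for being higher in the resistant line helped to set these resistant levels, and the ranks and shares given below. The median value of the 9 genes was 12.9 in the parental line against 13.4 over all rows, and 393 in the resistant line against 17.7 over all rows. In parental cells 4 of the 9 were above the median of the listed values, and in resistant cells 8 of the 9, all but STEAP4. If the values are per transcript length, as StringTie's abundance outputs are, levels can be ranked between genes. DBF4 then ranked 308 of 1729 by parental level and 5 by resistant level, SRI 370 and 7, and RUNDC3B 1379 and 37.

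The members together made up 0.150% of the summed listed values in the parental line and 5.48% in the resistant line, with sums of 167 and 6608. DBF4 and SRI held 72.2% of the members' sum in the resistant line. These are shares of the listed rows only, not of a library. Ranked by log2 difference, 5 members were among the 10 largest of the table and 8 among the 20 largest, and STEAP4 ranked 26. Of the 26 rows with a log2 difference of at least that of STEAP4, 12 lay on chromosome 14. This limit is the lowest value of the members, so the 12 rows include every member by construction. The rest of the 12 are LOC106559693, LOC111098741 and KBTBD2. Both LOC rows could be listed only by being higher, so nothing is read from this count.

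**Figure D4:**
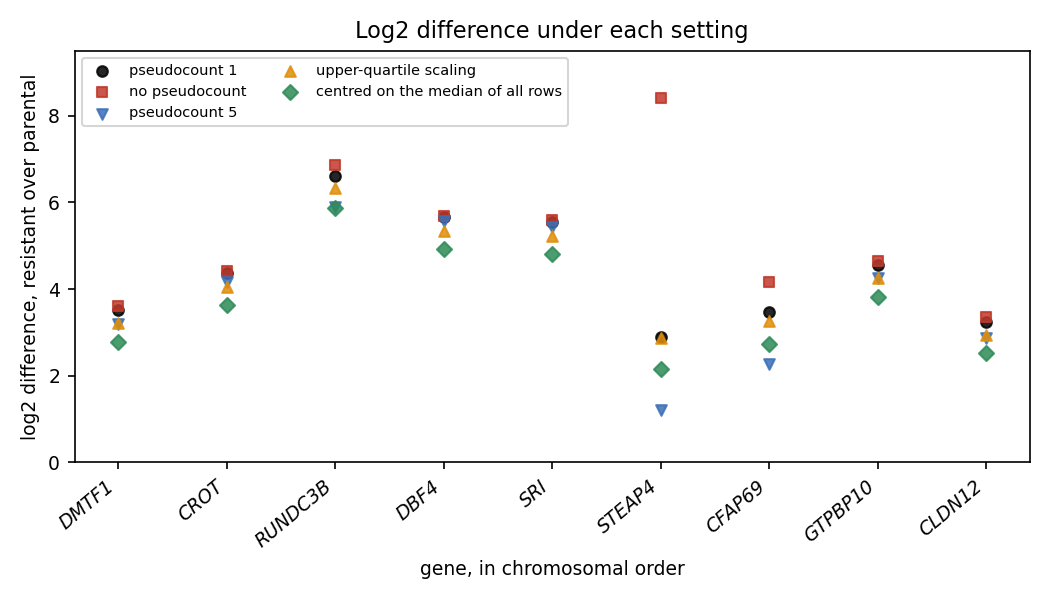
Log2 difference of each member, resistant over parental, with a pseudocount of 1 (circles), with none (squares), with 5 (downward triangles), after upper-quartile scaling (upward triangles) and after centring on the median of all rows (diamonds), 1 sample per line. All points lie above 0, and the spread is widest for STEAP4, from 1.20 to 8.41, and CFAP69, from 2.28 to 4.16.

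Few terms of the authors' deposited enrichment tables held members. Of 118 ontology terms, 8 held at least 1 member, and of 50 KEGG pathways none did. SRI was in 4 of these terms in the authors' deposited table, including cytosol (106 genes, p = 0.000684) and calcium-dependent cysteine-type endopeptidase activity (5 genes, p = 0.0706), an activity of the calpains. CROT and GTPBP10 shared the term mitochondrion in the authors' deposited table (84 genes, p = 0.0247), where 53 of 84 rows were higher with a median log2 difference of 0.71. DMTF1 was listed under nucleoplasm, STEAP4 under extracellular exosome and endosome, and DBF4 under zinc ion binding. RUNDC3B, CFAP69 and CLDN12 were in no term. The terms that held members had median log2 differences between 0.68 and 0.85, against 0.73 over all rows, and no term held more than 2 of the 9 genes. Small differences are left out of the listed rows, which largely sets the median of any set with mostly higher rows. Nothing is therefore read from these medians.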

How the data were processed

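Poly-A RNA of 1 sample per line was sequenced, with RNA extracted from 3 dishes, per the labels' protocols; the sources used here do not say whether these were pooled. HISAT2, StringTie and CanFam3.1 are named in the submitters' processing notes, without versions; settings, gene annotation and use of strand were not given in the sources used here. Abundance values deposited per gene and line have no stated unit and may be FPKM or TPM. The log2 fold changes deposited by the authors equal log2 of the ratio of both values in 1720 rows. The p-values of terms are the authors', per the file headers, and their tool, background and adjustment are unknown. The column CLBL-8 was matched to CLBL-1 8.0, whose title it shortens.

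All rows were used without a filter, with a pseudocount of 1 (Python 3.11.15, pandas 2.3.3). With 1 sample per group no test was made, and "called" means at least 2-fold or 4-fold higher. Named besides the members were the chromosome 14 rows among them, 3 rows on each side, and up to 4 members of each of 14 gene lists by absolute difference. The members and lists were chosen with earlier results of these data known. Alternatives were no pseudocount, a pseudocount of 5, upper-quartile scaling, centring on the median of all rows and a minimum of 10 in the higher line. The run search was tested on simulated data. The reference table of UU_Cfam_GSD_1.0 served for gene order, overlaps and relative spans only. Sequences were not used here, and a gene that the naming rule takes is not reported here.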

Additional observations from a re-analysis of the deposited data

How the results depend on the processing

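All 36 recomputed member differences (9 genes under 4 settings) stayed above 0 and at least 2-fold. Of these, 35 stayed at least 4-fold, the exception being STEAP4 at 1.20 with a pseudocount of 5. A pseudocount cannot change a direction, and the scaling and centring shifts were smaller than the lowest member difference, 2.89. The members were also chosen for being higher, so nothing is read from these counts. The members' median log2 difference of 4.36 was 4.65 without a pseudocount, 4.17 with 5, 4.05 after upper-quartile scaling (parental values times 1.25, a shift of 0.32 on the log2 scale) and 3.63 after centring on the median of all rows. With settings chosen after seeing the data it was 4.56 over the 7 members with a parental value of at least 5 and 4.46 without CLDN12. The median of the other chromosome 14 rows, 1.01, was 1.06, 0.86, 0.71 and 0.28 under the same first 4 settings, and 1.01 over rows that reach 10 in either line. The 416 rows at least 2-fold higher became 197 with a pseudocount of 5, 216 after scaling and 91 after centring. The 65 rows at least 4-fold higher became 99 without a pseudocount, 18 with a pseudocount of 5 and 30 after centring. The scaling factor and the median used for centring come from the listed rows only, which leave out genes that differed little. Neither is therefore a measured offset between the lines. No paired analysis was possible because each line is 1 sample, and no replicate could be left out. The depth is unknown, so no difference has a counting interval, and the low parental values of STEAP4 and CFAP69 are the least certain.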
